A study of Mus musculus with 24 samples.

Results

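RNA levels were compared between wild-type neural stem cells (NSCs) of 2 mouse strains, in 12 of the 24 libraries of the series. The members were chosen by their labels alone: 6 libraries of FVB/NJ cells with the unmodified Smchd1 gene (FVB_WT), and 6 libraries of C57BL/6J cells that carry Smchd1 fused to green fluorescent protein (B6GFP_WT). Both groups carry no MommeD43 change. The labels give the genotype of both as Smchd1+/+, whereas the study describes the second group as homozygous for the fusion, so strain and fusion differ together and cannot be told apart in any value given here. All cells were derived from embryonic cortex at E14.5 and were grown as adherent cultures with EGF and FGF. They were harvested at passage 10 or earlier and gave 100 ng of RNA per library. The FVB_WT libraries came from 5 lines and the B6GFP_WT libraries from 4. Batch 1 held 3 libraries of each strain, each from a line of its own, batch 2 held 3 more of FVB_WT and batch 3 held 3 more of B6GFP_WT, some of them repeats of the same lines. Another 10 libraries came from lines homozygous for the MommeD43 allele of Smchd1. The allele was made by chemical mutagenesis in FVB/NJ (FVB_MD43) and by genome editing of the fusion allele in C57BL/6J (B6GFP_MD43). These libraries served to repeat the strain comparison, and they also entered the fit over all batches.

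NSCs of the embryonic cortex are radial glia, which divide along the ventricle and give rise first to neurons and later to astrocytes and oligodendrocytes. In culture, EGF and FGF keep them dividing and hold back differentiation. FVB/NJ and C57BL/6J are inbred strains: each is fixed for one allele at nearly every locus, and alleles that lie close together on a chromosome are inherited as blocks. Smchd1 encodes a chromatin protein of the SMC family that silences the inactive X chromosome, imprinted genes and clustered gene families.

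The values were log2 CPM, the reads of a gene relative to all reads of its library on a log2 scale. The authors had corrected them for batch, sex and strain. The part of the strain term in the size of the differences was not tested. Reads of both strains had been mapped to the reference sequence, which is that of the strain of B6GFP_WT. The part of sequence differences between the strains in the values was not tested. Within each strain the batch means had been made equal for every gene (largest difference 7e-09), so batches 2 and 3 show the spread between lines but hold no information of their own on the size of the strain difference. A lack of overlap over 12 libraries therefore describes this spread and is not a repeat of the difference. Unless stated otherwise, 3 values in a row are replicates 1, 2 and 3 of batch 1, and a difference is B6GFP_WT minus FVB_WT over these libraries in log2 CPM, with the standard error (SE) of its fit. The SD over genes between libraries of 1 strain was 0.286 to 0.433 in batch 1, against 0.607 to 0.692 between libraries of different strains. B6GFP_WT replicate 4 of batch 3 stood apart: of 469 genes with a large strain difference it lay on the FVB_WT side of the midpoint for 91 (19.4%), against 41 and 18 for the other libraries of its batch. The cells are labelled female, yet over the 22 libraries used the Y-linked genes Ddx3y, Kdm5d, Uty and Eif2s3y were listed at 4.69 to 6.95 and Xist at -2.45 to 0.95. The correction by the authors included a term for sex, whose part in these levels was not tested. All 15 mitochondrial genes had 0 reads in all 6 batch 1 libraries and are still listed at 1.0 to 4.78, so a listed level includes a shift set by the correction. In these genes both strains are listed at the same value within batch 1, and whether the shift differed between strains in other genes was not tested.

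Smchd1, the gene that carries the fusion, stood at 7.17, 7.27 and 7.38 in FVB_WT and 6.93, 7.09 and 7.21 in B6GFP_WT. The groups overlapped, and the difference of -0.19 (SE 0.0882) did not pass in batch 1 (adjusted p = 0.189). With all batches the fitted difference was -0.22 and passed (adjusted p = 0.0143), so Smchd1 was not among the genes called below. In the MommeD43 lines the fitted strain difference of gene Smchd1 was -0.28 (adjusted p = 0.0102), and with array quality weights batch 1 passed as well (adjusted p = 0.049). These values do not check the fusion itself. Of 41 genes within 5 Mb of Smchd1 on chromosome 17, 5 (12.2%) were called, against 15.5% of all genes. Among them were Lama1, a laminin chain (difference -0.96), Ttc27 (-0.30) and the processed copy Gm4705 (-0.61), all lower in B6GFP_WT, and Galnt14, a glycosyltransferase, higher (1.67).

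Across all 14922 genes, 2361 passed in batch 1 (15.8% of genes, adjusted p at or under 0.05 by Benjamini-Hochberg), of which 1082 (7.25%) were higher and 1279 (8.57%) lower in B6GFP_WT. The fit over all batches called 6131 genes (41.1%). A gene is called here where it passed both fits in the same direction, which held for 2313 genes (15.5%): 1056 (7.08%) were higher in B6GFP_WT and 1257 (8.42%) were higher in FVB_WT. Most called differences were small, with a median size of 0.651 and 1567 genes under 1 on the log2 scale. Differences of at least 1 were seen for 342 genes higher in B6GFP_WT and 404 higher in FVB_WT, and of at least 2 for 99 and 113. All 2313 called genes were free of overlap within batch 1. The 12 libraries of the 2 strains did not overlap for 1172 of the called genes, or 50.7%, against 10.3% of all genes. Centring each library on its median shifted every difference by 0.053 and moved the split from 45.7% to 57.1% of called genes higher in B6GFP_WT, with 2638 genes called, so the balance between the directions depends on the scaling. Without FVB_WT replicate 2, 968 genes were called, and without FVB_WT replicate 1, 3679. Leaving out B6GFP_WT replicate 4 left 2314. That library is not in batch 1 and had the lowest quality weight of the 12 (0.101), so the count could hardly change without it.

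**Figure D1:**
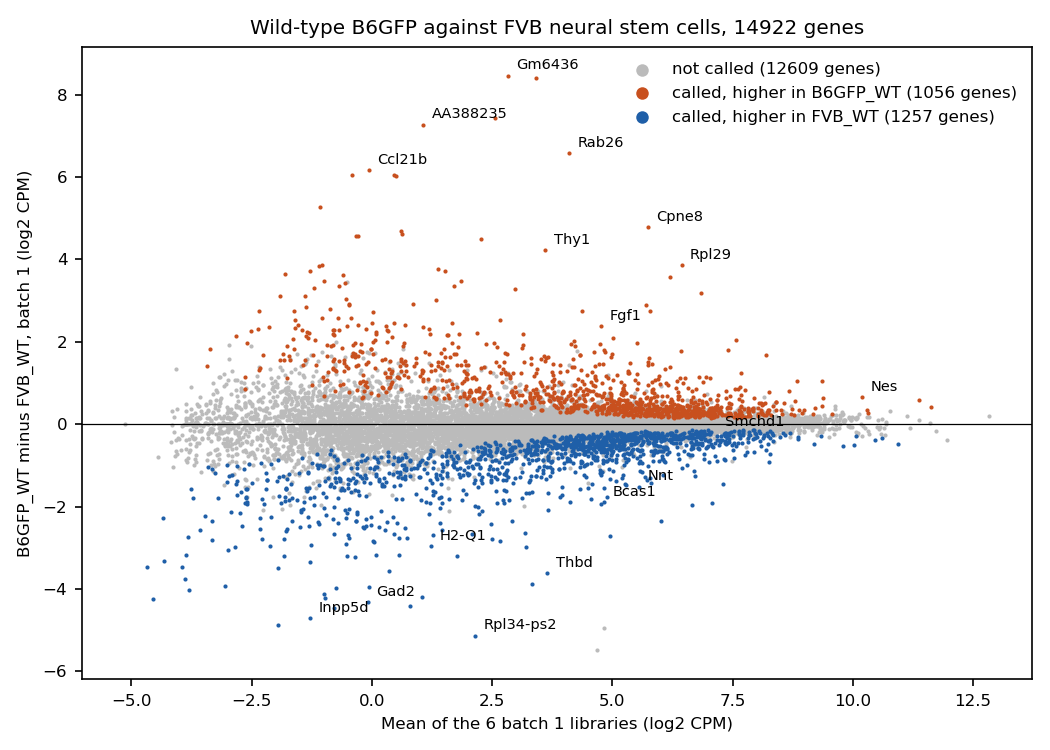
Difference between strains (B6GFP_WT minus FVB_WT, log2 CPM, vertical axis) against the mean of the 6 batch 1 libraries (log2 CPM, horizontal axis), 1 point for each of 14922 genes. Orange points are the 1056 genes called higher in B6GFP_WT and blue points the 1257 called higher in FVB_WT; genes with 0 reads in 1 strain, such as AA388235 and Ccl21b, are drawn at their listed value, which is not a measure of fold.

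The same contrast was examined in the MommeD43 lines. Their libraries are not in the wild-type fit of batch 1. They are in the fit over all batches that the call uses, where they add to the estimate of the spread. In batch 1 (2 libraries against 2), 2303 of the called genes (99.6%) had the same sign, against 79.3% of the 12609 genes not called. The median difference was 0.625 in wild type and 0.604 in MommeD43 for genes called higher in B6GFP_WT, and -0.672 and -0.680 for those called higher in FVB_WT. In the fit over all batches, 2104 of the called genes (91.0%) also passed in the MommeD43 lines in the same direction. Of all genes, 34.4% passed there, and without quality weights 880 of the called genes did. Both contrasts come from the same fit and share its estimate of the spread, so this is not an independent repeat. A limma interaction term for a strain difference that depends on the MommeD43 genotype passed for 0 genes, with 459 at an unadjusted p under 0.05 and a smallest adjusted p of 0.243. In these lines strain and fusion again differ together.

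**Figure D2:**
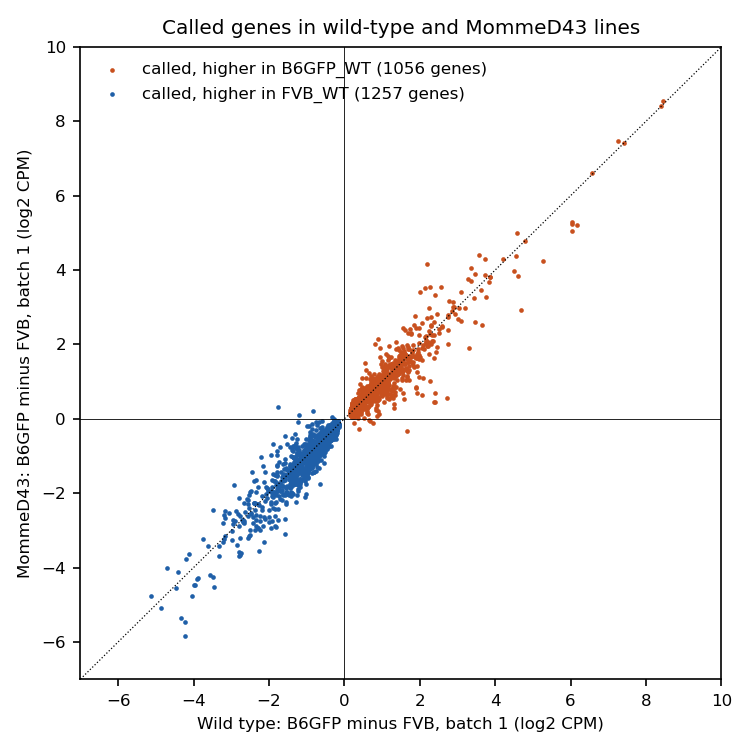
Strain difference in MommeD43 lines (vertical axis, batch 1, log2 CPM) against that in wild-type lines (horizontal axis, batch 1, log2 CPM) for the 2313 called genes, with the line of equal values dotted. Of these genes, 2303 share the sign of the difference between genotypes.

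Rab26, Cpne8 and Thy1 had some of the largest differences towards B6GFP_WT. Rab26, a small GTPase of secretory vesicles (chromosome 17, 24529054 to 24533747, GRCm38.p6), stood at 0.73, 1.16 and 0.55 in FVB_WT and 7.58, 7.40 and 7.18 in B6GFP_WT. Its difference was 6.58 (SE 0.182, adjusted p = 6.49e-05), a 95.5-fold higher level. Cpne8, a calcium-dependent phospholipid-binding protein of the copine family, rose from 3.99, 3.09 and 2.96 to 8.03, 8.13 and 8.24, or 27.6-fold (4.79, SE 0.266, adjusted p = 0.000374). Neither gene overlapped between strains in any of the 12 libraries. Thy1, a surface glycoprotein of neurons and mesenchymal cells, stood at 1.5, 1.64 and 1.36 against 5.99, 5.10 and 6.06, which is 18.7-fold higher (4.22, SE 0.264, adjusted p = 0.000557). The copies or unplaced entries with differences of this size were Gm6436 (8.46), Entrez 100504629 (8.40), Entrez 100504526 (7.42) and Gm29673 (4.69). Of these, Gm29673 varied among the B6GFP_WT lines, with 2.66, 2.08 and 4.14.

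**Figure D3:**
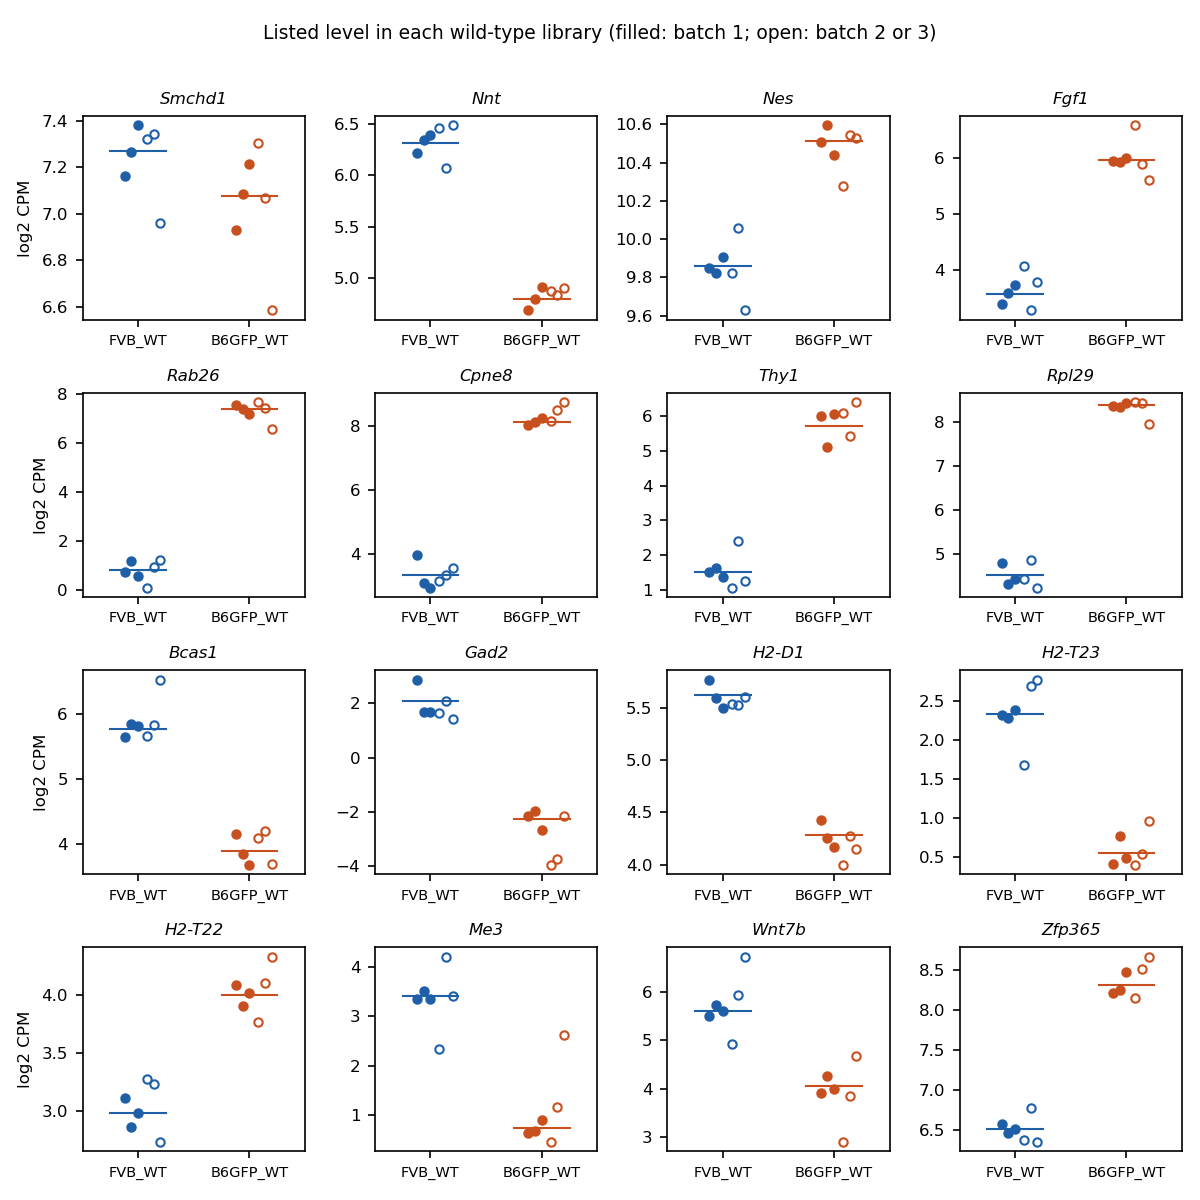
Listed level (log2 CPM, vertical axes, each with its own range) of 16 genes in each of the 6 FVB_WT and 6 B6GFP_WT libraries, with filled points for batch 1, open points for batches 2 and 3 and a bar at the batch 1 mean. Smchd1 overlaps between the strains, and Me3 does so only through the highest B6GFP_WT library (2.63).

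Of the called genes, 13 had 0 reads in all 3 FVB_WT libraries of batch 1. AA388235 had 417, 352 and 476 reads in B6GFP_WT, at least 359-fold higher when 3 reads over the FVB_WT group are taken as the limit of a count of 0. Vsig8, an immunoglobulin-domain membrane protein, had 40, 25 and 20 reads (at least 24.5-fold), and Trim30d, a member of a gene family induced by interferon, had 21, 12 and 14 (at least 13.6-fold). A whole group of chemokine copies on chromosome 4 was in this class. Ccl21a, a ligand of the receptor Ccr7 that guides lymphocytes and dendritic cells, had 159, 101 and 64 reads (at least 93.5-fold), Ccl21b had 283, 164 and 148 (at least 172-fold), and Gm10591, Gm13304 and Gm21541 were at least 152-fold to 159-fold higher. These 5 transcripts are 99.3% to 100% identical, so reads cannot be assigned to 1 of them, and they are best read as 1 signal. The Ccl21 copies had mapped reads in B6GFP_WT and none in FVB_WT. Because the reference sequence is that of the strain of B6GFP_WT, a count of 0 in FVB_WT is a lack of mapped reads. Whether FVB_WT cells lack these transcripts was not tested.

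Ccl21a and Gm10591 are shown because the 250 bases before their starts are almost the same as well. RefSeq on GRCm38.p6 places them at chr4:42773992-42774241 on the minus strand for Ccl21a and at chr4:42611873-42612122 on the plus strand for Gm10591. The 2 windows are offset by 1 base, 2 of 249 compared bases differ and stand in capitals in Gm10591, and Gm13304 has the same 250 bases as Gm10591. The window before the annotated start of Ccl21b, in contrast, is a different sequence (34.7% of bases equal to those of Ccl21a).
Ccl21a: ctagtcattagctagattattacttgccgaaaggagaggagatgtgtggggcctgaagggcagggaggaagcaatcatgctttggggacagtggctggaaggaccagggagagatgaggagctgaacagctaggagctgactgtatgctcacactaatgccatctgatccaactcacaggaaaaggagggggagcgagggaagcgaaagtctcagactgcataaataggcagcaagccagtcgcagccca
Gm10591: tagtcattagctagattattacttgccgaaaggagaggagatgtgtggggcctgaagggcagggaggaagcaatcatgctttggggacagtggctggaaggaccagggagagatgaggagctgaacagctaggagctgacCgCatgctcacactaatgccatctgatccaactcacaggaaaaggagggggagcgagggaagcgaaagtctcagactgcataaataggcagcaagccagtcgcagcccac

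In the other direction, 7 called genes had 0 reads in all 3 B6GFP_WT libraries of batch 1. Sycp1, a structural protein of the synaptonemal complex of meiosis, had 51, 93 and 59 reads in FVB_WT and was at least 78.1-fold lower in B6GFP_WT. Grm7, a glutamate receptor, had 5, 14 and 10 (at least 11.2-fold). The other 5, Gpr12, Gm3029, Postn, Snord118 and Gm8297, had 7 to 9 reads in total in FVB_WT.

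Inpp5d, Tlr6 and Thbd were among the genes with the largest fitted differences towards FVB_WT. Inpp5d, a lipid phosphatase of blood cells also called SHIP1, stood at 1.24, 0.75 and 1.22 in FVB_WT and -3.63, -3.29 and -3.98 in B6GFP_WT (-4.70, SE 0.244, adjusted p = 0.00032). Tlr6, a receptor for bacterial lipopeptides, stood at 1.28, 1.63 and 1.42 against -2.78, -2.73 and -3.57 (-4.47, SE 0.27, adjusted p = 0.000489). Thbd, or thrombomodulin, an anticoagulant receptor, fell from 5.20, 5.44 and 5.72 to 2.84, 1.94 and 0.74, or 12.3-fold (-3.62, SE 0.507, adjusted p = 0.00747). None of these 3 genes overlapped between strains over 12 libraries. Rpl34-ps2, a processed copy of the ribosomal protein gene Rpl34, had the largest fitted difference of the genes called higher in FVB_WT (-5.13), with the zinc finger gene Zfp459 (-4.12) and the extracellular proteins Clec3b (-4.19) and Matn4 (-3.96) also in this group. Bod1-ps (-4.42), Gm3716 (-3.98) and Entrez 620248 (-3.88) completed the 12 largest with Gad2 and Mbp, which are described with their cell types.

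Nnt encodes the mitochondrial transhydrogenase that makes NADPH from NADH, and C57BL/6J mice are known to carry a deletion inside this gene. Its level was 6.21, 6.34 and 6.39 in FVB_WT and 4.69, 4.80 and 4.91 in B6GFP_WT. The level was 2.86-fold lower in B6GFP_WT (-1.52, SE 0.0779, adjusted p = 0.000312), without overlap over the 12 libraries. Of 7 genes listed with textbook alleles that differ between strains, 4 were measured. Gabra2, a GABA receptor subunit, was 1.65-fold higher in B6GFP_WT (0.72, SE 0.157, adjusted p = 0.0302), with 3.61, 3.18 and 3.09 against 4.14, 3.87 and 4.03. Its call was lost in 5 of the 6 fits that leave out 1 batch 1 library. Glo1 (0.03, SE 0.0531, adjusted p = 0.779) and Cox7a2l (0.09, SE 0.0466, adjusted p = 0.241) did not pass, and both overlapped.

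Genes of mitochondrial redox and detoxification that were called were mostly lower in B6GFP_WT. Of 22 mitochondrial redox genes 5 were lower and 2 higher, against 8.42% and 7.08% of all genes. Me3, the mitochondrial NADP malic enzyme, fell from 3.35, 3.51 and 3.36 to 0.64, 0.69 and 0.90, or 6.34-fold (-2.66, SE 0.127, adjusted p = 0.000243), though B6GFP_WT replicate 4 reached 2.63 and overlapped. Ucp2, an uncoupling protein of the inner membrane, was 3.18-fold lower (-1.67, SE 0.231, adjusted p = 0.00713) and did not overlap. Glud1, glutamate dehydrogenase, was lower as well (-0.53), and Glrx2, a mitochondrial glutaredoxin, was higher (0.34). Of 35 genes of glutathione use and detoxification 7 were lower and 4 higher. Slc7a11, the cystine importer that supplies glutathione synthesis, stood at 7.43, 7.20 and 7.16 against 6.19, 6.03 and 6.18 (-1.13, SE 0.0858, adjusted p = 0.00105). The glutathione transferases Gstt1 (-1.26), Gsta4 (-1.24) and Gstm7 (-0.81) and the carbonyl reductase Cbr3 (-0.84) were lower, while Aldh1a1, the retinaldehyde dehydrogenase, was 3.10 higher on the log2 scale from a low level. Among 80 subunits of oxidative phosphorylation, 10 were lower and 2 higher. Uqcrc2, a core subunit of complex III, was lower (-0.91, SE 0.0874, adjusted p = 0.0022), as were Cox6b2 (-0.77), Cox5a (-0.47) and Ndufa12 (-0.46), and Ndufc2 was higher (0.38). The list medians were -0.08, -0.15 and -0.09, against -0.02 over all genes.

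Class I genes of the major histocompatibility complex (MHC) present peptides from inside the cell to T cells, and their alleles differ between inbred strains. Of 26 measured genes of class I and antigen presentation, 13 were called lower and 2 higher in B6GFP_WT, against 8.42% and 7.08% of all genes, with a median of -0.46. H2-D1, a classical class I chain, stood at 5.77, 5.60 and 5.50 in FVB_WT and 4.43, 4.25 and 4.17 in B6GFP_WT (-1.34, SE 0.0995, adjusted p = 0.000938). H2-K1, the other classical chain, was -0.61 lower (SE 0.0992, adjusted p = 0.0123). The non-classical genes H2-Q1 (-2.96), H2-T10 (-2.83), H2-Q6 (-2.41) and H2-T23 (-1.78) fell further, and none of these 6 genes overlapped in the 12 libraries. RefSeq lists H2-T10 as a transcribed pseudogene. H2-T22 moved the other way, from 3.11, 2.86 and 2.98 to 4.08, 3.90 and 4.02 (1.02, SE 0.101, adjusted p = 0.0024), and so did H2-T24 (3.83). Genes that load peptides were lower too, with the transporter subunits Tap1 (-0.48) and Tap2 (-1.01), the trimming enzyme Erap1 (-0.44) and the immunoproteasome subunit Psmb9 (-1.21). B2m, the invariant chain that pairs with all class I chains, did not pass (6.22 in FVB_WT and 6.31 in B6GFP_WT). The H2 genes named here lie in a stretch of chromosome 17 (GRCm38.p6, 33523646 to 37274485). Of its 130 genes, 43 (33.1%) were called, against 15.5% of all genes, 29 lower and 14 higher in B6GFP_WT. Reads of both strains were mapped to the C57BL/6J sequence, and the part of sequence differences between H2 alleles in these values was not tested.

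Of 47 measured interferon-stimulated genes, 10 were called higher and 2 lower in B6GFP_WT, against 7.08% and 8.42% of all genes. The other 35 were not called, and 22 of the 47 had a mean under 1 log2 CPM. Igtp, a GTPase induced by interferon gamma, stood at 0.05, 0.01 and -0.21 in FVB_WT and 1.39, 1.68 and 0.66 in B6GFP_WT (1.29, SE 0.281, adjusted p = 0.0298). Irf1, a transcription factor of the same response, rose by a smaller step from a higher level (0.34, SE 0.0829, adjusted p = 0.0429). Both overlapped over 12 libraries. Ifi27 (1.57), Oasl1 (2.58), Ifit1 (2.24), Ifit3 (1.31) and Irf7 (1.43) were also higher, from means below 0 in FVB_WT. Gbp7, a guanylate-binding protein of the same class as Igtp, was lower without overlap, at 5.23, 6.01 and 6.06 against 4.48, 4.65 and 4.02 (-1.38, SE 0.268, adjusted p = 0.0209). In the MommeD43 lines (limma, all batches) Igtp (0.62, adjusted p = 0.14), Irf1 (0.13, adjusted p = 0.499) and Ifi27 (1.14, adjusted p = 0.0667) did not pass. Gbp7 did pass there (-1.48, adjusted p = 1.17e-05). The list median in wild type was 0.41, and 0.105 over the 21 members with a mean of at least 1 log2 CPM.

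The promoters of 2 genes higher and 2 lower in B6GFP_WT are shown because the core of the interferon-stimulated response element (ISRE), GAAANNGAAA or TTTCNNTTTC on the other strand, lies in all 4 of them, whichever way the gene differed. The motif, in capitals, begins 34 bases before the start of Igtp, 53 before that of Gbp7, 191 before that of H2-T22 and 124 before that of H2-T23. The windows are the 250 bases before each RefSeq start on GRCm38.p6: chr11:58199306-58199555 (plus), chr3:142530086-142530335 (plus), chr17:36042743-36042992 (minus) and chr17:36032702-36032951 (minus).
Igtp: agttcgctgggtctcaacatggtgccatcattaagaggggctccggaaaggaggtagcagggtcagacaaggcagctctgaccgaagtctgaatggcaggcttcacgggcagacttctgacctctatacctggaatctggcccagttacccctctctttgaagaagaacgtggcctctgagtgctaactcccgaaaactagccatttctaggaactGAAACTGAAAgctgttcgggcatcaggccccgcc
Gbp7: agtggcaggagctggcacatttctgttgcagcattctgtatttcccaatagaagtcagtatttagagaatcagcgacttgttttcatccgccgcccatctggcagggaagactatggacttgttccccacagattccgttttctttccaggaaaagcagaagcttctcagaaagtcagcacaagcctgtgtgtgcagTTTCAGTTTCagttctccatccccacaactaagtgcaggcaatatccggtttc
H2-T22: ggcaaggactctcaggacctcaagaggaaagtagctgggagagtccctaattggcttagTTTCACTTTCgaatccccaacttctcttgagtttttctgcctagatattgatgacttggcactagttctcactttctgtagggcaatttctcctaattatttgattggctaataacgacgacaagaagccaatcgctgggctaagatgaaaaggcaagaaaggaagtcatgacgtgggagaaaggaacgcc
H2-T23: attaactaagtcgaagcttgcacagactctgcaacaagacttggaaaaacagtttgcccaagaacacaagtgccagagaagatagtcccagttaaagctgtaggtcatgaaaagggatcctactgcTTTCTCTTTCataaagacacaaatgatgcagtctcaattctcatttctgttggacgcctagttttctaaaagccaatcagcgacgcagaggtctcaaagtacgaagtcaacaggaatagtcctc

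The motif was found in 15 of the 36 interferon-stimulated genes with a promoter in the table (41.7%) and in 3 of 19 MHC genes (15.8%), against 3.46% of all 27025 promoters and 2.94% of those of genes tested. Among called genes it was found in 3.28% of promoters of genes higher in B6GFP_WT and 3.93% of those higher in FVB_WT. Of called interferon-stimulated genes with a promoter, 3 of 9 higher in B6GFP_WT and 1 of 1 higher in FVB_WT had it. For called MHC genes the numbers were 1 of 1 and 1 of 10, so most called members of the 2 lists lack the motif. A promoter was in the table for 11104 of the genes tested, and these shares are a description without a test.

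Markers checked the label of the cells. Radial glia and stem cell genes were well expressed in both strains. Of 21 measured members 5 were lower and 1 higher in B6GFP_WT (28.6% called, against 15.5% of all genes), and 15 were not called. Nes, or nestin, the filament protein of neural progenitors, was at 9.85, 9.82 and 9.91 in FVB_WT and 10.51, 10.60 and 10.44 in B6GFP_WT. Its level was 1.57-fold higher in B6GFP_WT (0.65, SE 0.0593, adjusted p = 0.00187), without overlap over the 12 libraries. The 5 other called members were lower in B6GFP_WT: Prom1, a membrane protein of the apical surface (-1.10), the glutamate transporter Slc1a3 (-0.52), the RNA-binding protein Msi1 (-0.47), the transcription factor Sox2 (-0.35) and Fabp7, a lipid carrier of radial glia (-0.33). Sox2 stood at 8.0, 8.18 and 8.14 against 7.82, 7.69 and 7.75 and did not overlap. Vim, Pax6 and Sox9 did not pass. The Notch target Hes5 ranged from 2.70 to 4.90 in FVB_WT and 1.87 to 2.36 in B6GFP_WT, and with this spread between FVB_WT lines the difference did not pass (-1.98, SE 0.603, adjusted p = 0.077).

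Astrocyte genes that were called were lower in B6GFP_WT, with 1 exception. Of 17 members 7 were lower and 1 higher (47.1% called, against 15.5% of all genes), with a median of -0.45. Aldh1l1, an enzyme of folate metabolism, was 2.68-fold lower, Apoe, the lipid carrier, 2.57-fold, and Slc1a2, the main glutamate transporter of mature astrocytes, 2.06-fold. All 3 overlapped over 12 libraries, and B6GFP_WT replicate 4 held the highest Apoe value of all (7.77). Aldoc, an aldolase of astrocytes, did not overlap, at 8.05, 8.23 and 8.15 against 7.66, 7.45 and 7.30 (-0.67, SE 0.098, adjusted p = 0.00869). Mlc1, a membrane protein of astrocyte end-feet, was higher (0.40). Aqp4, the water channel (-2.30), and S100b (-1.71) were lower from means below 1, and Gfap did not pass (0.12 in FVB_WT and -1.31 in B6GFP_WT).

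The oligodendrocyte lineage had the highest share of called genes of any list with at least 10 members, with 11 of 20 lower and 2 higher in B6GFP_WT, against 8.42% and 7.08% of all genes. The list median was -0.79, but it was -0.305 on the log2(CPM + 1) scale and -0.043 over the 12 members with a mean of at least 1 log2 CPM. Mbp, myelin basic protein, stood at 0.70, 1.42 and 1.31 in FVB_WT and -2.60, -3.37 and -3.26 in B6GFP_WT (-4.22, SE 0.297, adjusted p = 0.000785). Genes of cells on the way to myelination followed: Bcas1 was 3.69-fold lower (-1.88, SE 0.133, adjusted p = 0.000785), Myrf, the transcription factor of myelin genes, 3.61-fold and Gpr17 5.66-fold. Of these, Gpr17 overlapped over 12 libraries through a FVB_WT library of batch 2. Olig2, a transcription factor that also marks ventral progenitors, was slightly higher in B6GFP_WT, at 9.15, 9.03 and 8.96 against 9.30, 9.29 and 9.33 (0.26, SE 0.0581, adjusted p = 0.0333). B6GFP_WT replicate 4, however, was listed at 8.59, below every FVB_WT library, and the call was lost in 5 of the 6 fits that leave out 1 batch 1 library. Cspg4, the NG2 proteoglycan of precursors, was higher (0.82). Pdgfra (0.02) and Sox10 (-0.85) did not pass. The RNA of a culture does not tell whether fewer cells held these transcripts or each cell held less.

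**Figure D4:**
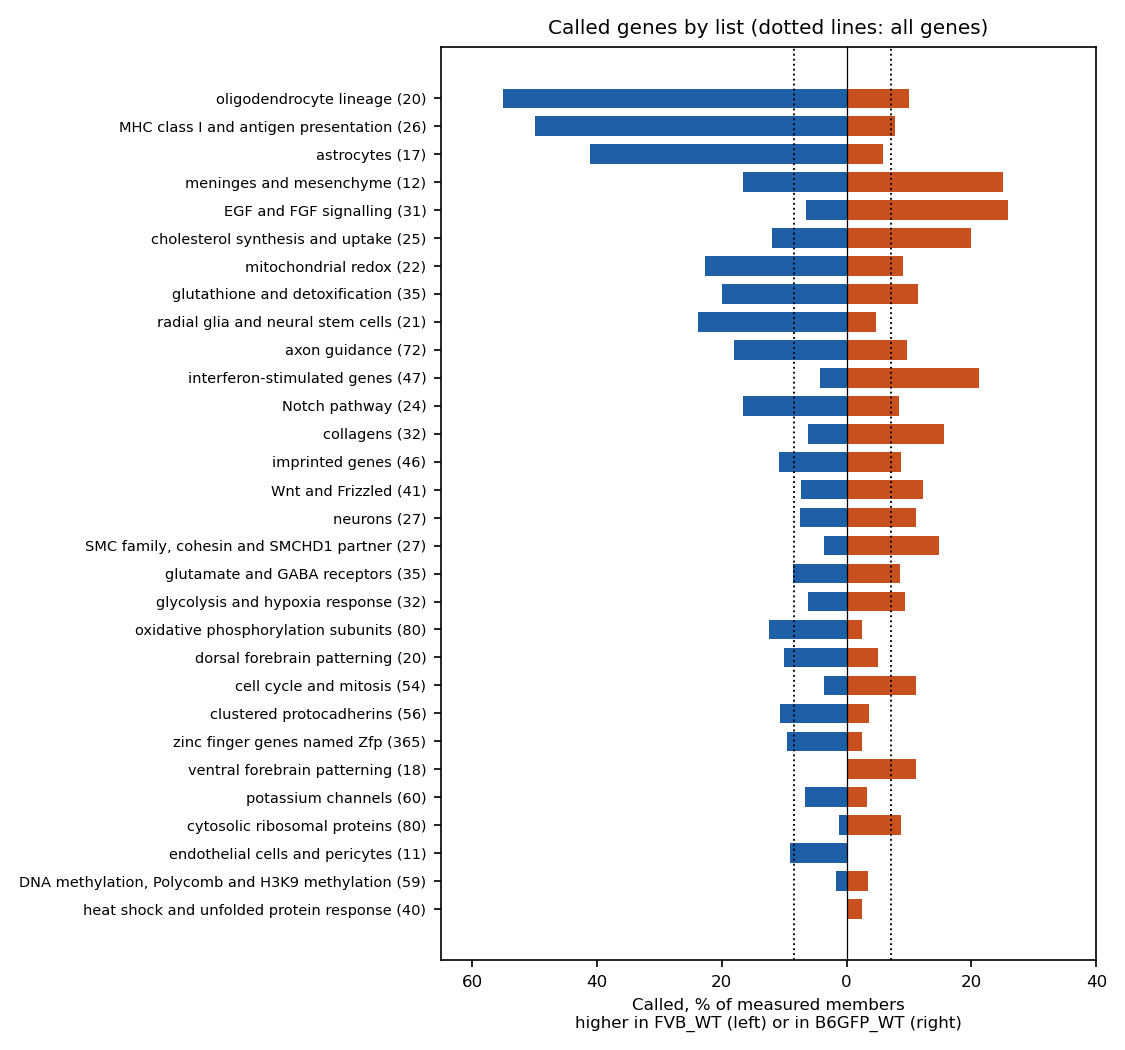
Called genes as a percentage of the measured members of each list (number in brackets), with those higher in FVB_WT to the left and those higher in B6GFP_WT to the right, and dotted lines at the shares over all genes (8.42% and 7.08%). The oligodendrocyte list reaches 55% to the left, from 11 of 20 members.

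Neuronal genes did not move together. Of 27 measured members 3 were higher and 2 lower in B6GFP_WT (18.5% called, against 15.5% of all genes), with a median of 0. Gad2, an enzyme that makes GABA, stood at 2.87, 1.68 and 1.67 in FVB_WT and -2.14, -1.95 and -2.66 in B6GFP_WT (-4.33, SE 0.386, adjusted p = 0.00175). Dcx, a microtubule protein of migrating neurons, was 3.26-fold lower (-1.70, SE 0.174, adjusted p = 0.00261). Neither overlapped. The synaptic vesicle protein Syt1 was 3.38-fold higher (1.76, SE 0.421, adjusted p = 0.0397), and the neurofilament genes Nefl (2.44) and Nefm (1.54) were higher from means below 0. Of 35 glutamate and GABA receptor genes 3 were higher and 3 lower (17.1% called). The NMDA receptor subunits went opposite ways: Grin2b fell from 0.80, 1.27 and 1.30 to -1.81, -0.99 and -1.27 (-2.48, SE 0.265, adjusted p = 0.00289), and Grin2a rose from 0.58, -0.11 and 0.20 to 2.62, 1.89 and 1.44 (1.76, SE 0.341, adjusted p = 0.021). Of 60 potassium channel genes 4 were lower and 2 higher (10% called). The lower genes include Kcnk1 (-1.40), Kcnn3 (-1.20) and Kcnj10 (-0.87), and the higher genes were Kcnip3 (1.02) and Kcnv1 (0.83).

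Markers of other cells that a cortical dissection could bring along were mostly low. Of 12 microglia markers only P2ry12 was in the table (0.06 in FVB_WT and 0.40 in B6GFP_WT, not called). All 11 measured endothelial and pericyte genes had means under 1, with Cdh5 at 0 reads in 5 of 6 libraries, and 1 of them, Esam, was lower in B6GFP_WT (-1.56). Of 12 genes of meninges and mesenchyme 3 were higher and 2 lower (41.7% called, against 15.5% of all genes). Dcn had 0 reads in all 6 libraries and Col1a1, Col1a2, Col3a1 and Twist1 had means below 0. Foxc1, a transcription factor of meninges and mesenchyme, was 5.73-fold higher in B6GFP_WT (2.52, SE 0.285, adjusted p = 0.00358), and Prrx1, a mesenchymal homeobox gene, 2.63-fold. The smooth muscle genes Acta2 (-2.52) and Tagln (-1.81) were lower, but B6GFP_WT replicate 4 was listed at 4.73 for Acta2 and 2.50 for Tagln, above most FVB_WT libraries. Of 32 collagen genes 5 were higher and 2 lower (21.9% called). Col12a1 (1.93), Col18a1 (1.77) and Col5a3 (0.88) were higher. Col26a1 was lower (-1.27), although B6GFP_WT replicate 4 was listed at 4.63 for Col26a1. The part of other cell types in these values was not tested beyond these levels.

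Because the cultures depend on EGF and FGF, 31 genes of these pathways were examined. Of these, 8 were higher and 2 lower in B6GFP_WT (32.3% called, against 15.5% of all genes). Fgf1, a growth factor that binds all FGF receptors, stood at 3.39, 3.58 and 3.72 in FVB_WT and 5.95, 5.92 and 5.99 in B6GFP_WT. It was 5.22-fold higher (2.38, SE 0.0918, adjusted p = 0.000166) without overlap in 12 libraries. Feedback inhibitors and targets that the pathway is known to induce rose less, with Dusp4, a MAP kinase phosphatase (0.76), Lrig1, which lowers EGF receptor levels (0.52), Etv5 (0.38) and Spry4 (0.34). The receptor Fgfr2 (-0.91) and the ligand Nrg1 (-1.23) were lower in batch 1, and both overlapped through B6GFP_WT replicate 4, which was listed at 5.80 for Fgfr2 and 3.28 for Nrg1. The median over the list was 0.05.

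In the Notch pathway, which keeps radial glia undifferentiated, 4 of 24 genes were lower and 2 higher in B6GFP_WT. The share called was 25%, against 15.5% of all genes. The target gene Hey1 (-0.63), Hes6, which antagonises Hes1 (-0.28), and the glycosyltransferase Lfng (-0.20) were lower, while Rbpj, the DNA-binding partner of Notch (0.26), and Numbl, an adaptor that inhibits it (0.84), were higher. All 5 overlapped over 12 libraries, and the call of Lfng was lost in each of the 6 fits without 1 batch 1 library. Of 41 Wnt and Frizzled genes 5 were higher and 3 lower (19.5% called). Wnt7b, a ligand of the cortical ventricular zone, stood at 5.51, 5.72 and 5.60 against 3.91, 4.27 and 3.99, 2.94-fold lower (-1.56, SE 0.11, adjusted p = 0.000785), and Sfrp1, a secreted Wnt inhibitor, was 2.29-fold lower. Both were free of overlap. The receptors Fzd9 (1.33) and Fzd10 (0.56) and the co-receptor Lrp5 (0.26) were higher, with B6GFP_WT replicate 4 at 5.45 for Fzd9, inside the FVB_WT range. Among patterning genes of the forebrain, 2 of 20 dorsal ones were lower and 1 higher (15% called). Of 18 ventral ones 2 were higher (11.1% called), Olig2 and Ebf1 (2.01). Of 72 axon guidance genes 13 were lower and 7 higher (27.8% called). Slit1, a repellent ligand, was 3.58-fold higher, at 1.77, 2.55 and 2.32 against 4.27, 4.01 and 3.87 (1.84, SE 0.222, adjusted p = 0.00453). Unc5b (-1.23), Efnb3 (-1.08), Plxnb3 (-1.26) and Sema5a (-1.76) were lower. For Sema5a, B6GFP_WT replicate 4 was listed at 6.12, above every FVB_WT library.

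Genes of cell division were called at about the share of all genes (14.8% against 15.5%), with 6 of 54 higher and 2 lower in B6GFP_WT. Ccnd1, the cyclin that responds to growth factors, stood at 11.28, 10.98 and 10.99 against 11.66, 11.67 and 11.70 (0.60, SE 0.0969, adjusted p = 0.0122). The proliferation marker Mki67 (0.33) and Ccne1 (0.35) were higher with overlap. Of the inhibitors of cyclin-dependent kinases, Cdkn1c (-0.97) and Cdkn1b (-0.30) were lower and Cdkn2a was higher (0.69), all 3 without overlap. The calls of Mki67, Ccne1 and Cdkn2a were lost in 5 of the 6 fits without 1 batch 1 library. That of Cdkn1c was lost in 4. In the SMC family, to which SMCHD1 belongs, 4 of 27 genes were higher and 1 lower (18.5% called). The condensin subunits Ncapg2 (0.53), Ncapd2 (0.51), Ncapg (0.31) and Smc2 (0.27) were the higher ones, and Ncapg2 and Ncapd2 did not overlap. Hdac8, which deacetylates cohesin, was lower (-0.52).

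Regulators of chromatin differed little. Of 59 genes of DNA methylation, Polycomb and H3K9 methylation 3 were called (5.08%, against 15.5% of all genes). The Polycomb subunits Aebp2 (0.37) and Suz12 (0.19) were higher, and Ehmt2, which methylates H3K9, was lower (-0.20). Of 46 imprinted genes 5 were lower and 4 higher (19.6% called), including Nnat (-0.67) and Cdkn1c (-0.97) lower and Plagl1 (0.83) and Igf2r (0.49) higher. Clustered protocadherins give neurons their surface identity and are a gene family on which SMCHD1 is known to act. Of 56 members 6 were lower and 2 higher (14.3% called), with a median of -0.11. Pcdhgb8, which RefSeq lists as a transcribed pseudogene, stood out. It fell from 3.52, 3.34 and 3.26 to -0.05, 0.22 and 0.35, or 9.20-fold (-3.20, SE 0.155, adjusted p = 0.000259), without overlap. Pcdhb10 (-0.98), Pcdhb7 (-0.90) and Pcdhgb5 (-0.89) were lower, and Pcdhga3 was higher (0.53). Pcdhgb5 is 95.02% identical to Pcdhgb6 over 71.8% of its transcript, so its reads may be split between the 2 genes. Of 365 genes named Zfp, which encode zinc finger proteins, 35 were lower and 9 higher in B6GFP_WT (12.1% called), with a median of -0.19. Zfp119b (-3.18) and Zfp78 (-1.82) were lower, whereas Zfp33b rose from -0.41, 0.55 and 0.21 to 3.49, 3.66 and 3.59 (3.47, SE 0.253, adjusted p = 0.000906) and Zfp365, a centrosomal protein gene, from 6.57, 6.46 and 6.51 to 8.21, 8.24 and 8.47 (1.79, SE 0.0771, adjusted p = 0.00019).

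Some ribosomal protein genes with near-identical copies showed large differences. Of 80 genes 7 were higher and 1 lower (10% called, against 15.5% of all genes), with a median of 0.12. Rpl29 stood at 4.79, 4.31 and 4.43 in FVB_WT and 8.37, 8.33 and 8.43 in B6GFP_WT, 14.6-fold higher (3.87, SE 0.122, adjusted p = 8.73e-05). Rps2 was 3.23-fold, Rpl34 1.84-fold and Rpl35a 1.93-fold higher. The search cannot tell whether Rpl35a has a short copy, because it required 50% cover of the longest transcript, here 2858 bases. It listed no copy for Rpl34 either, which does have one. B6GFP_WT replicate 4 overlapped with FVB_WT for Rpl34 (5.91). Rpl34-ps2, whose transcript is 97.2% identical to Rpl34, was 35.0-fold lower in B6GFP_WT, while Gm6436, which is 95.5% identical to Rps18 over 78.5% of its length, was 351-fold higher. Rps2 has 27 other genes and Rpl29 has 3 with at least 95% identity over at least 50% of the transcript. Reads of such genes cannot be assigned with certainty to 1 copy, so the levels of single copies are uncertain. The reference sequence is that of the strain of B6GFP_WT. The part of sequence differences between the strains in the split of reads among copies was not tested.

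Of 32 genes of glycolysis and hypoxia 3 were higher and 2 lower (15.6% called, against 15.5% of all genes). Gapdh was 2.18-fold higher (1.13, SE 0.105, adjusted p = 0.00197), at 6.06, 6.03 and 5.73 against 7.20, 7.0 and 6.99. Eno1 was 1.54-fold higher, and Ddit4, a stress-induced inhibitor of mTOR signalling, was 1.80-fold lower. Eno1 has a copy, Eno1b, that is 99.5% identical. For Gapdh the search listed none, but it required 50% cover of a transcript of 3289 bases. It cannot tell whether Gapdh has a shorter copy, so the level of Gapdh carries the same uncertainty. Of 25 genes of cholesterol synthesis and uptake 5 were higher and 3 lower (32% called). The desaturase Sc5d (0.48) was higher, and Tm7sf2 (-0.57) and Hsd17b7 (-0.50) were lower. Of 40 heat shock and unfolded protein genes only Atf3 (0.99) was called, or 2.5%.

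Called genes were spread over all chromosomes of the nuclear genome, from 10.5% of genes on the X chromosome and 11.9% on chromosome 7 to 21.3% on chromosome 1. In 452 windows of 5 Mb with at least 8 genes the median share was 14.9%, and 28 windows had none. The highest share was on chromosome 6 from 130 to 135 Mb, where 11 of 15 genes (73.3%) were called, 8 higher and 3 lower in B6GFP_WT. They include Dusp16, a MAP kinase phosphatase (0.46), Lrp6, a Wnt co-receptor (0.17), Etv6 (0.32), Lockd (1.51) and Apold1 (2.0), all higher, and the orphan receptor Gpr19 (-0.63) and Cdkn1b (-0.30), both lower. Without quality weights 4 genes were called in this window, and 5 with the replicate block. Next came chromosome 1 from 165 to 170 Mb with 13 of 23 genes (56.5%), among them Pogk (0.33) and Uck2 (0.44) higher and Rgs4 (-1.07), Ccdc190 (-2.77) and Aldh9a1 (-0.41) lower, where 6 were called without quality weights. Chromosomes 10 (105 to 110 Mb), 2 (55 to 60 Mb) and 8 (40 to 45 Mb) each had a window at 50%. Genes in both directions lay side by side in the windows of chromosomes 6 and 1. By type, 15.9% of protein-coding genes, 13.1% of long non-coding RNAs and 21.6% of transcribed pseudogenes were called.

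**Figure D5:**
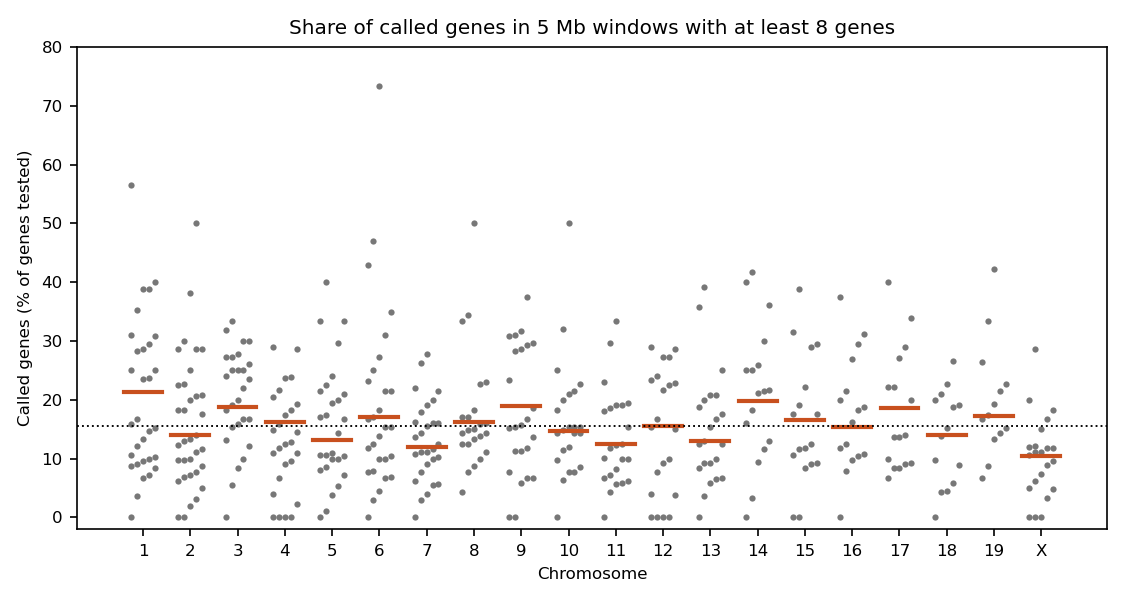
Share of called genes (vertical axis, % of genes tested) in each 5 Mb window with at least 8 genes, by chromosome (horizontal axis), with an orange bar at the share of the whole chromosome and a dotted line at that over all genes (15.5%). The window on chromosome 6 from 130 to 135 Mb is the highest, at 73.3%.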

How the data were processed

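Poly(A) RNA libraries (TruSeq) were compared by strain: 6 FVB_WT and 6 B6GFP_WT, with 10 libraries of MommeD43 lines in the fit over all batches. The authors trimmed reads with Trim Galore 0.4.4, mapped them with HISAT2 2.0.5 to GRCm38.p6 and used limma 3.40.6. The read counter is not given in the sources used here. The deposited values are log2 CPM after a correction by the authors for batch, sex and strain, made together with libraries not used here. All columns were mapped to a sample (0 were not). In 2 MommeD43 columns the values equalled their group mean in every gene, and these were left out. Of 14922 genes, 14453 were matched to RefSeq and 469 were not.

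The log2 values were modelled in limma 3.58.1 (R 4.3.3). The first fit used batch 1 (3 against 3, mean-variance trend, 4 residual and 2.22 prior degrees of freedom). The second used 22 libraries with terms for group and batch, quality weights per library between 0.101 and 4.90, and lines entered as blocks (correlation 0.0827). The Benjamini-Hochberg method adjusted p across the whole table, and 0.05 was the threshold. Both fits share the batch 1 libraries and are not independent. Lines are taken as replicates, and 2 of the 3 B6GFP_WT lines of batch 1 share the number before the point in their names. Reads per gene were recovered from the steps between low values: all 1359 values within 10 steps were whole multiples (tolerance 0.01). Relative depth in batch 1 was 0.708 to 0.929 in FVB_WT and 0.907 to 1 in B6GFP_WT, absolute depth is unknown, and no counting interval is given; limits from a count of 0 cover counting error only. In the low range, 80 genes had 0 reads in all 6 libraries. Copies were sought with blastn 2.17.0 (at least 95% identity over at least 50% of the longest transcript of each gene), so shorter copies could be missed.

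Named genes were Smchd1, Xist, genes with textbook strain alleles, the 12 largest called differences in each direction and at most 5 per list with a mean of at least 1 log2 CPM in the higher strain, and the genes of the 3 windows with the highest share. Other genes named were chosen after their values were seen. Members and lists were chosen with earlier results of these data known. The fits were tested on simulated data. Alternatives were left-out libraries, weights, scaling, filters, pseudocount (1), replicate block and the samples in the fit.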

Additional observations from a re-analysis of the deposited data

Results flagged for a closer look

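In 156 named genes, the highest or lowest line of each strain (5 lines of FVB_WT, 4 of B6GFP_WT) was compared with the others, in 312 groups of values. In 17 of these 1 sample lay farther from the rest than Dixon's 95% limit. Chance gives about 1 in 20, and 17 of 312 over both strains is close to that rate. The 17 were not spread evenly over the lines, as given next, so this pooled rate does not describe single lines. Values are log2 CPM, with the range of the other lines after each, and a line is the mean of its libraries.

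Most of the 17 were B6GFP_WT replicate 4, which was sequenced only in batch 3. It was higher than the other lines for Dusp4 (7.19 against 6.07 to 6.22), Mlc1 (8.60 against 7.99 to 8.08), Pcdhb10 (1.19 against 0.19 to 0.36), Nefl (3.42 against 0.48 to 0.97) and Zfp119b (1.44 against -1.35 to -0.98). It was lower for Hes6 (6.13 against 6.70 to 6.74), Fzd9 (5.45 against 6.76 to 6.99), Rpl29 (7.96 against 8.37 to 8.43), Rpl34 (5.91 against 6.76 to 6.92), Wnt7a (4.76 against 5.70 to 5.76), Nnat (7.19 against 7.54 to 7.58), Ndufc2 (7.54 against 8.19 to 8.29) and Olig2 (8.59 against 9.30 to 9.42). This library had the lowest quality weight of the 12, 0.101, and the part of its batch, line or quality in these values was not tested. It is in the fit over all batches but not in batch 1, and without it the number of genes that passed both fits was 2314. With its low weight and its absence from batch 1 this number could hardly change, so it does not measure the influence of the line.

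The other 4 came from other lines. Cox7a2l was lower in FVB_WT replicate 5 (7.33 against 7.54 to 7.58), and so was Clec3b (2.20 against 3.03 to 3.18). Gm29673 was lower in FVB_WT replicate 3 (-2.20 against -1.61 to -1.39), where its reads are close to 0. Gapdh was higher in B6GFP_WT replicate 1 (7.20 against 7.01 to 7.03).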

How the results depend on the processing

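In batch 1, 2361 genes passed. Leaving out 1 library gave 988 to 3793 (without FVB_WT replicate 2 and replicate 1), the replicate block 1523, array quality weights 4635, all 4 groups of batch 1 in the fit 4333 and, chosen after seeing the data, the B6GFP_WT lines that share a number averaged 1308. The count with all batches, 6131, was 1259 without quality weights and, chosen after seeing the data, 589 in wild-type libraries without weights. Leaving out 1 line gave 4014 to 6400. Of the genes that passed both fits, 2313, the values in the same order were 968 to 3679 for left-out libraries, among them 1067 without FVB_WT replicate 3, 1246 without B6GFP_WT replicate 1 and 1102 without B6GFP_WT replicate 2, then 1512 with the replicate block, 4400, 4098, 1299, 1106 and 589. Replicate numbers do not pair the samples (correlations of deviations 0.0481, 0.0903 and -0.0440), and the block takes up degrees of freedom. The 2104 called genes that also passed in MommeD43 lines were 880 without weights, and the interaction passed for 61 genes with all 24 columns, which include the 2 columns equal to a group mean. The cause of the other changes was not tested.

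Among 156 named genes, the direction held in all settings except for gene Glo1 (-0.007 without FVB_WT replicate 2 to 0.062 without FVB_WT replicate 3) and gene Xist (-0.045 without FVB_WT replicate 1 to 0.407 without FVB_WT replicate 2, -0.041 without B6GFP_WT replicate 3 and -0.123 with weights), neither of which passed. Without FVB_WT replicate 2, 54 lost their call, and with the replicate block 28. In 5 of the 6 fits without 1 batch 1 library, Gabra2, Olig2, Suz12, Numbl, Rbpj, Hdac8, Ncapg and Fzd10 lost their call. So did Cdkn2a, Ccne1, Mki67, Pcdhga3, Col18a1, Wnt7a, Ddit4, Atf3, Irf1, Cox5a, Ndufa12 and Kcnn3. The list medians of neurons, ventral patterning, potassium channels, receptors, axon guidance, glycolysis, Wnt, imprinted, heat shock and chromatin genes changed sign under at least 1 setting. That of the oligodendrocyte list ranged from -0.896 to -0.043, and that of meninges and mesenchyme from 0.065 to 1.39. Depth relative to other libraries is known, but absolute depth is not, so differences of low genes cannot be given a counting error.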

Other observations

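The 2 largest differences of the whole table that were not called belong to Erdr1, a gene of the pseudoautosomal region of the X chromosome, and to Entrez_100862004, which is not placed; both were picked after their values were seen. Erdr1 stood at 7.57, 7.83 and 6.87 in the FVB_WT libraries of batch 1 and at -1.22, 0.08 and 6.94 in those of B6GFP_WT, so 1 line of B6GFP_WT matched FVB_WT and the other 2 were near or below 0 (adjusted p = 0.125). In batch 3 the B6GFP_WT lines stood at -2.33 (replicate 2), 3.39 (replicate 3) and 6.95 (replicate 4), on a scale where the batch means of a strain had been made equal. Entrez_100862004 followed the same order, with 7.34, 7.70 and 6.82 against -0.60, 0.64 and 7.0 in batch 1. Gm19601, also unplaced, went the other way in the same kind of pattern, with -2.70, -2.14 and -1.91 in FVB_WT and 2.65, -2.28 and 3.22 in B6GFP_WT. These 3 genes vary between lines of 1 strain more than the strains differ, and the cause was not tested.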
